A study of Rattus norvegicus with 10 samples.

Results

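The cytosolic calcium buffers and neuronal calcium sensors described here are 10 genes of EF-hand proteins, chosen by name from the genes listed in the deposited tables: Calb1, Calb2, Pvalb, Vsnl1, Hpca, Hpcal1, Hpcal4, Ncald, Ncs1 and Necab1. Each symbol belonged to 1 Ensembl identifier, and all 10 passed the filter on low counts, out of 32402 listed genes of which 15311 were tested. RNA sequencing of polyadenylated RNA was done on the supraoptic nucleus (SON), the hypothalamic nucleus whose magnocellular neurones release vasopressin and oxytocin, taken as punches from both sides of the brain. There were 5 libraries from dehydrated Wistar Han rats, kept for 72 h without water, and 5 from euhydrated Wistar Han rats that could drink freely. Whole cages were allotted at random, the labels give no other treatment and no altered allele for either group, and neither age nor whether each library came from a separate animal is given, and the p-values therefore reflect only how far these libraries scatter, which may be technical.

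An EF-hand is a loop flanked by helices that holds a calcium ion. Buffers such as calbindin, calretinin and parvalbumin bind calcium as it enters and limit how far and how long it spreads. Neuronal calcium sensors instead change shape when they bind it: in hippocalcin and its relatives a fatty acid swings out and ties the protein to a membrane, where it acts on channels, receptors or enzymes. In the SON, calbindin and calretinin are known from magnocellular neurones, whose bursts of firing depend on how calcium is handled.

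Library totals ran from 24268398 to 28491926 gene counts. A punch holds other cells beside magnocellular ones, and in such tissue fewer cells of a type and less RNA per cell cannot be told apart. Summed over 10 magnocellular genes, Avp and Oxt among them, the level was 13000 to 17200 CPM in dehydrated libraries. It was 8770 to 12100 CPM in euhydrated libraries (CPM: read counts scaled to the size of each library). Of the 10, 5 rose (Caprin2, Pdyn, Creb3l1, Vgf and Scg2), against 7.79% of all genes tested. Avp and Oxt did not pass (log2 fold change 0.46 and 0.18, edgeR adjusted p = 0.080 and 0.254), nor did Sim1, Pou3f2 and Nrsn2. Markers of cortical projection neurones varied widely within both groups: Slc17a7, a vesicular glutamate transporter gene of the cortex and hippocampus, ranged from 16.2 to 63.7 CPM in dehydrated and from 11.4 to 89.8 CPM in euhydrated libraries, with the lowest value of each group in its library numbered 2. Libraries are numbered as in the count table, and the labels do not say that a number pairs libraries across groups.

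Dehydrated libraries held less transcript of 4 calcium sensors, Vsnl1, Hpca, Hpcal1 and Hpcal4, than euhydrated libraries. These belong to the visinin-like subfamily of the sensors, and the fifth of that subfamily on the list, Ncald, did not pass. Of the 10 genes 4 fell, 0 rose and 6 did not pass an edgeR adjusted p of 0.05, while among all genes tested 4.9% fell, 7.79% rose and 12.7% passed in either direction. DESeq2 and limma-voom each called 1 of the 10 higher and 4 lower. Over all genes DESeq2 called 1323 higher and 924 lower of 14613, and limma-voom called 1178 higher and 742 lower of 15311. At an unadjusted p under 0.05 edgeR put 2 of the 10 higher and 5 lower. The share of all genes at that unadjusted cut is not given, here or for the lists below, so those counts have no background beside them. The median log2 fold change of the 10 was -0.12, against -0.0058 over all genes tested. The changes were small: the fitted change of the 4 genes that fell ran from -22.8% in Hpcal4 to -9.65% in Hpcal1.

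**Figure D1:**
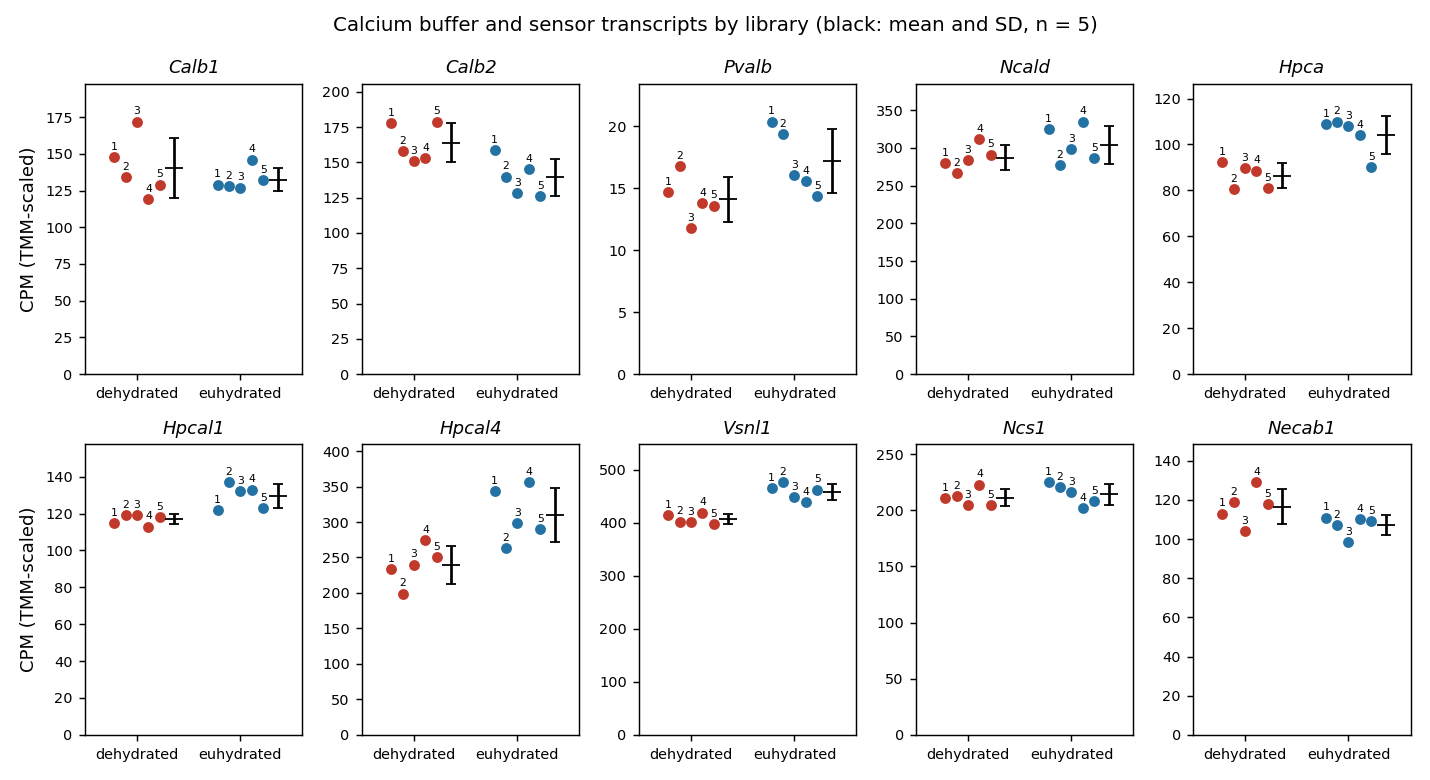
Level of each of the 10 transcripts in CPM after TMM scaling, with 1 point per library (numbered as in the count table), dehydrated in red and euhydrated in blue, and the mean and SD of each group in black (n = 5). For Vsnl1 and Hpcal1 all 5 dehydrated points lie below all 5 euhydrated points, and for the other 8 genes the groups overlap.

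Vsnl1 (ENSRNOG00000005345) encodes visinin-like protein, a sensor known for its part in receptor traffic and cyclic nucleotide signalling. Its level was 414, 402, 401, 419 and 397 CPM in dehydrated libraries 1 to 5, against 465, 476, 448, 439 and 462 CPM in euhydrated libraries 1 to 5. Every dehydrated library was below every euhydrated one, with a gap between 419 and 439 CPM. The means were 406.5 ± 9.19 CPM in dehydrated and 458 ± 14.7 CPM in euhydrated libraries (SD, n = 5 each), so the spread within a group was 2.26% and 3.21% of the mean. Vsnl1 fell by 0.17 ± 0.03 on the log2 scale (SE), with a 95% interval of -0.23 to -0.11 (edgeR adjusted p = 0.000993). It kept its call and its direction in all 23 alternatives tried, with a log2 fold change of -0.20 to -0.15.

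The DNA before the start of Vsnl1 is shown as that of the most firmly called gene, and that of Ncs1, a sensor described further on that did not pass, is shown for comparison. Of the 10 genes 6 had an entry in the RefSeq promoter table (build GRCr8), and for these 2 alone the 250 bases before the start lay wholly outside the annotated gene. Capitals mark matches, on either strand, to a GC box (GGGCGG), the core of the cyclic AMP response element (TGACG), its full form (TGACGTCA), an AP-1 site (TGANTCA) or an E box (CANNTG).
Vsnl1, chr6:39878557-39878806, minus strand: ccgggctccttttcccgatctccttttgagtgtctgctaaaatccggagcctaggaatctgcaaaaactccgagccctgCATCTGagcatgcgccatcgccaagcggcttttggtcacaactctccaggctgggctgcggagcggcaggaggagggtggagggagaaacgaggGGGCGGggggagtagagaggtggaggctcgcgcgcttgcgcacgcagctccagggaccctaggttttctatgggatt
Ncs1, chr3:34920699-34920948, plus strand: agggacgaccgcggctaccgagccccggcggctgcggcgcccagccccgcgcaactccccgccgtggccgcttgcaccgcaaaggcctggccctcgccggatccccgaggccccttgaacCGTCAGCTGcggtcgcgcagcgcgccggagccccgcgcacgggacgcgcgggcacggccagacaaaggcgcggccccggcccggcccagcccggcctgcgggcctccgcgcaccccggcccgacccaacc

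The Vsnl1 stretch held 1 GC box and 1 E box, and the Ncs1 stretch held 1 E box that overlapped 1 core element. Neither held the full cyclic AMP response element or the AP-1 letters in this window. Over the 33469 stretches of the same length in the table, 30.5% held the GC box, 18.2% the core, 1.6% the full element, 6.3% the AP-1 letters and 65.5% an E box. The G and C bases made up 60.8% of the Vsnl1 stretch and 80.8% of the Ncs1 stretch, against a median of 51.2% over the table.

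Hpca (ENSRNOG00000006979) encodes hippocalcin, a sensor abundant in the hippocampus and known there for a role in the slow potassium current that follows firing. It stood at 92.3, 80.6, 89.7, 88.6 and 81.0 CPM in dehydrated libraries 1 to 5, against 109, 110, 108, 104 and 90.1 CPM in euhydrated libraries 1 to 5. The groups overlapped through euhydrated library 5, which lay below dehydrated library 1, while the other 4 euhydrated libraries lay above all dehydrated ones. The means were 86.5 ± 5.33 CPM in dehydrated and 104.1 ± 8.15 CPM in euhydrated libraries (SD, n = 5 each), and Hpca fell by 0.27 ± 0.06 on the log2 scale (SE; edgeR adjusted p = 0.00577).

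Hpcal1 (ENSRNOG00000005492), for a hippocalcin-like sensor closely similar to hippocalcin in sequence, had the smallest change of the 4 genes that fell. Its level was 115, 119, 119, 113 and 118 CPM in dehydrated libraries 1 to 5, and 122, 137, 132, 133 and 123 CPM in euhydrated libraries 1 to 5. The groups did not overlap, as was so for 2 of the 10 genes and for 10.9% of all genes tested. Hpcal1 fell by 0.15 ± 0.04 on the log2 scale (SE; edgeR adjusted p = 0.0143). Without both libraries numbered 2 the log2 fold change was -0.13 and the call was lost (edgeR adjusted p = 0.0515).

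Hpcal4 (ENSRNOG00000050983), another visinin-like sensor, known to modulate calcium channels, had the largest fitted change of the 10 and one of the widest spreads. It stood at 234, 199, 240, 274 and 250 CPM in dehydrated libraries 1 to 5, against 343, 263, 298, 356 and 290 CPM in euhydrated libraries 1 to 5. Of the dehydrated libraries 4 lay below all euhydrated ones, and dehydrated library 4 lay above euhydrated library 2. The fall was 0.37 ± 0.10 on the log2 scale (SE), with a 95% interval of -0.60 to -0.14 (edgeR adjusted p = 0.0449). The direction held in all 23 alternatives, but the call was lost in 12 of them, among them the fits without dehydrated library 1, 2, 3 or 5 or euhydrated library 1, 3, 4 or 5 (log2 fold change from -0.43 to -0.31 and edgeR adjusted p from 0.0265 to 0.098 over the 10 fits without 1 library).

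Ncald (ENSRNOG00000042978) encodes neurocalcin delta, a visinin-like sensor known to act on guanylate cyclases. It did not pass, with 280, 267, 284, 312 and 291 CPM in dehydrated libraries 1 to 5 and 325, 277, 298, 335 and 286 CPM in euhydrated libraries 1 to 5. The log2 fold change was -0.08 ± 0.06 (SE), with a 95% interval of -0.20 to 0.04 (edgeR adjusted p = 0.369). The groups overlapped over most of their range.

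Within each group Ncald and Hpcal4 went up and down together across libraries. With each group mean removed and each gene scaled to the same SD, their profiles over the 10 libraries lay 0.257 apart (root-mean-square distance, where 0 is an identical profile and 1.41 an unrelated one), the closest of the 45 pairs of members, and the next pair, Vsnl1 and Ncs1, lay 0.704 apart. Both genes were lowest in the library numbered 2 and highest in the library numbered 4 of each group. The ratio of Hpcal4 to Ncald counts, which does not depend on how libraries are scaled, was 0.836, 0.744, 0.845, 0.877 and 0.859 in dehydrated libraries 1 to 5, against 1.05, 0.952, 1.00, 1.06 and 1.01 in euhydrated libraries 1 to 5. The ratio did not overlap between the groups and averaged 0.832 ± 0.052 in dehydrated and 1.01 ± 0.043 in euhydrated libraries (SD, n = 5 each). This ratio was chosen after the values had been seen and was not tested.

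**Figure D2:**
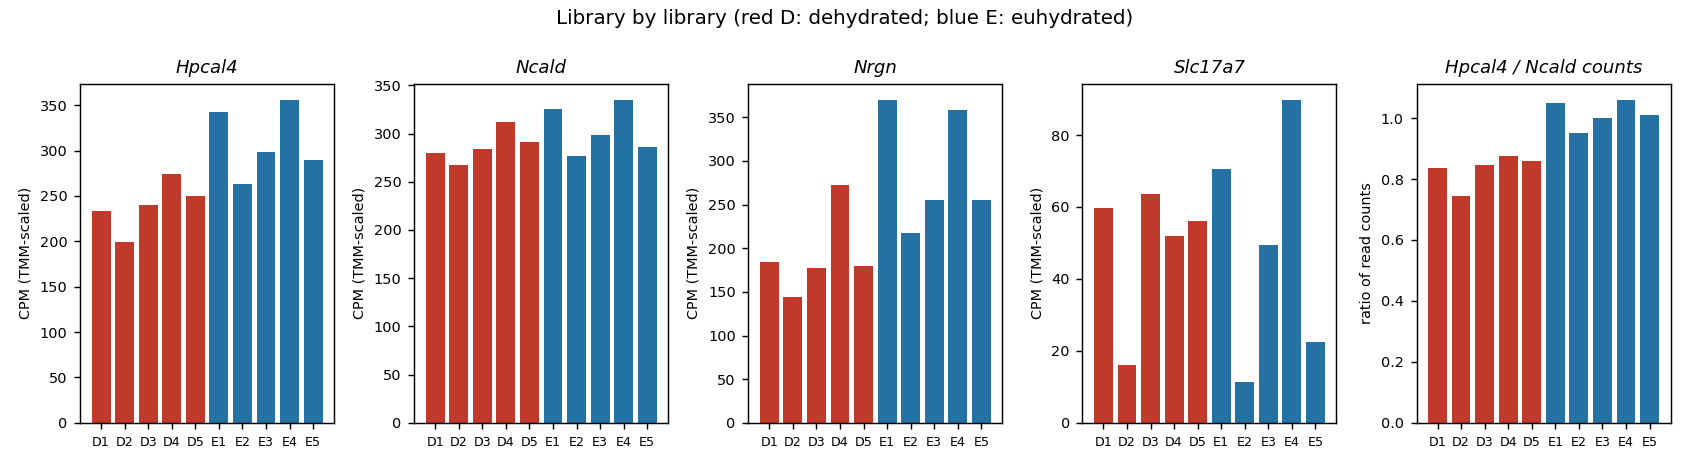
Hpcal4, Ncald and the forebrain genes Nrgn and Slc17a7 in CPM after TMM scaling, and the ratio of Hpcal4 to Ncald counts, with 1 bar per library, dehydrated (D) in red and euhydrated (E) in blue. Libraries D2 and E2 have the least Hpcal4, Ncald, Nrgn and Slc17a7 of their groups, while the ratio lies between 0.744 and 0.877 in dehydrated and between 0.952 and 1.06 in euhydrated libraries.

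Genes of cortical projection neurones moved between libraries in part as Hpcal4 did. Nrgn, a calmodulin-binding protein of forebrain neurones, was 184, 144, 177, 272 and 180 CPM in dehydrated libraries 1 to 5, against 370, 217, 255, 358 and 255 CPM in euhydrated libraries 1 to 5. Its log2 fold change of -0.60 ± 0.21 did not pass (SE; edgeR adjusted p = 0.109). The summed level of the 10 cortical markers was 305 to 540 CPM in dehydrated and 406 to 696 CPM in euhydrated libraries. By edgeR 0 of 10 passed in either direction, against 12.7% of all genes tested. At an unadjusted p under 0.05 edgeR put 0 higher and 1 lower, and DESeq2 and limma-voom each called 1 lower. With the mean log2 level of this list as a covariate the same 4 members were called, and the log2 fold change of Hpcal4 was then -0.31 ± 0.05 (SE; edgeR adjusted p = 0.000573, against 0.0449 without it and a highest value of 0.136 over the alternatives). In the fit without both libraries numbered 2 the log2 fold change of Hpcal4 was -0.37 (edgeR adjusted p = 0.0188). Both this fit and the covariate were added after the values had been seen, so the lower adjusted p values are not independent support. The mean log2 level of the list itself differed by -0.147 between the groups (dehydrated minus euhydrated).

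A further 3 marker lists, also used as covariates after the values had been seen, moved the calls of these genes. The mean log2 level of 9 GABAergic markers was 5.43 to 5.74 in dehydrated and 5.68 to 5.73 in euhydrated libraries, and that of 5 erythrocyte markers was 4.34 to 5.75 in dehydrated and 5.21 to 6.50 in euhydrated libraries. With either of these 2 lists as a covariate 1 of the 10 members was called, Vsnl1 (edgeR adjusted p = 0.017 and 0.0184). The fold changes of Hpca and Hpcal4 were then -0.22 and -0.42 on the log2 scale with the GABAergic list and -0.30 and -0.50 with the erythrocyte list, and the SE of each was larger than without a covariate. Hpcal1 had -0.16 with the GABAergic list (edgeR adjusted p = 0.0539) and -0.11 with the erythrocyte list (0.257), its smallest change over the alternatives. Of 8 oligodendrocyte markers 2 fell, Cnp and Opalin, both genes of myelinating cells, against 4.9% of all genes tested. The median log2 fold change of these markers was -0.17. With that list as a covariate Hpcal4 lost its call (log2 fold change -0.32, edgeR adjusted p = 0.136), Necab1 gained one as higher (0.18, 0.0105), and 1 member was called higher and 3 lower. Npy, on the GABAergic list, was listed at 0 in all libraries.

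The 3 buffers differed from each other in sign, and none passed in edgeR. Calb2 (ENSRNOG00000016977), for calretinin, stood at 178, 158, 151, 153 and 179 CPM in dehydrated libraries 1 to 5, against 159, 140, 128, 145 and 126 CPM in euhydrated libraries 1 to 5. All 5 dehydrated libraries were above the euhydrated mean of 139.5 CPM, and the groups overlapped through euhydrated library 1. The log2 fold change was 0.23 ± 0.07 (SE), with a 95% interval of 0.08 to 0.39 (edgeR adjusted p = 0.0549). DESeq2 (adjusted p = 0.00863) and limma-voom called it, as did edgeR once euhydrated library 1 was left out (log2 fold change 0.28, edgeR adjusted p = 0.0135). Over all alternatives its adjusted p ran from 0.00863 to 0.42. In the authors' deposited table Calb2 has a log2 fold change of 0.23 and an adjusted p of 0.00863.

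Calb1 (ENSRNOG00000007456), for calbindin, stood at 148, 134, 172, 119 and 129 CPM in dehydrated libraries 1 to 5, against 129, 128, 127, 146 and 132 CPM in euhydrated libraries 1 to 5. The dehydrated values lay on both sides of the euhydrated ones, with a spread of 14.6% of the mean in dehydrated and 5.97% in euhydrated libraries. Its log2 fold change was 0.08 ± 0.09 (SE), with a 95% interval of -0.12 to 0.29 (edgeR adjusted p = 0.623), and it was 0.000286 without dehydrated library 3, the highest.

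Pvalb (ENSRNOG00000006471), for parvalbumin, known from fast-firing inhibitory neurones, had the fewest reads, 320 to 565 reads per library. It ranged from 11.8 to 16.8 CPM in dehydrated and from 14.4 to 20.4 CPM in euhydrated libraries, and all 5 dehydrated libraries lay below the euhydrated mean of 17.2 CPM. The log2 fold change was -0.28 ± 0.11 (SE), with a 95% interval of -0.52 to -0.05 (edgeR adjusted p = 0.103), and Pvalb passed without dehydrated library 2, the highest of its group (log2 fold change -0.35, edgeR adjusted p = 0.0445; lowest 0.0231 and highest 0.494 of all alternatives).

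Ncs1 (ENSRNOG00000008761), the sensor that gives the family its name and is known to act on a phosphatidylinositol kinase and on dopamine receptors, had the smallest fitted change of the 10. It ranged from 205 to 223 CPM in dehydrated and from 202 to 225 CPM in euhydrated libraries, so that each group covered nearly the same range. The log2 fold change was -0.02 ± 0.03 (SE), with a 95% interval of -0.09 to 0.05 (edgeR adjusted p = 0.762), an interval that does not reach the fitted change of Vsnl1 or Hpcal1. Necab1 (ENSRNOG00000007256), for an EF-hand protein of neurones, was 104 to 129 CPM in dehydrated and 98.6 to 111 CPM in euhydrated libraries, with 4 of 5 dehydrated libraries above all euhydrated ones. Its log2 fold change was 0.12 ± 0.05 (SE; edgeR adjusted p = 0.136), and it passed without dehydrated library 3, the lowest of its group (log2 fold change 0.16, edgeR adjusted p = 0.0371; lowest 0.0105 and highest 0.536 of all alternatives).

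**Figure D3:**
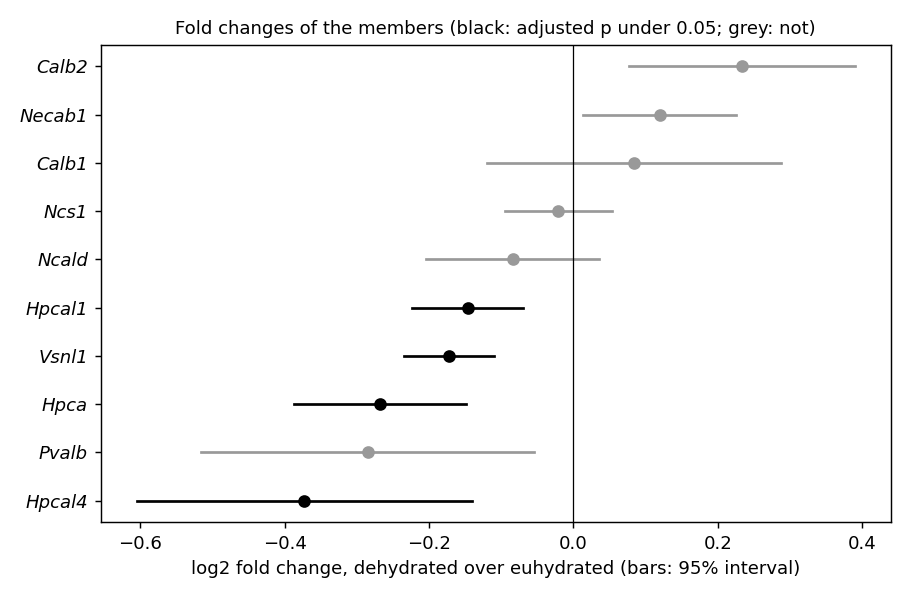
Fitted log2 fold change, dehydrated over euhydrated, of each of the 10 transcripts with its 95% interval, in black where the edgeR adjusted p is under 0.05 and in grey where it is not. The 4 sensors in black lie between -0.37 and -0.15, and Calb2, Necab1 and Calb1 are the 3 genes with fold changes above 0.

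The authors' deposited table gives each of the 10 genes the same sign as the edgeR fit. Both rest on the same counts, so this is not independent support. By its adjusted p values 5 of the 10 pass 0.05, Vsnl1 (6.73e-07), Hpca (0.000166), Hpcal1 (0.00347) and Hpcal4 (0.00678) as lower and Calb2 as higher, and in the authors' deposited table as a whole 2246 of 14613 genes with an adjusted p pass, or 15.4%.

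The genes whose profile over the 10 libraries was nearest to a sensor that fell, group means removed, were not the other sensors. For Hpcal4 they were Lzts1 (distance 0.151), Atp2b4 (0.208), which encodes a plasma membrane calcium pump, and Cnih3 (0.213), which encodes an auxiliary protein of AMPA receptors. For Vsnl1 they were Plpp3, Cspg4 and Vsig10 (0.336 to 0.413), and for Hpcal1 they were Nt5dc2, Fhod3 and Mroh7 (0.424 to 0.458). The median distance of the 11611 genes searched was 1.42 from Hpcal4 and Hpcal1 and 1.43 from Vsnl1. How near the closest of so many genes would lie by chance was not tested.

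Calmodulin is the general calcium sensor of cells and acts through kinases and the phosphatase calcineurin. Of 27 tested genes of calmodulin and its targets 7 fell, 1 rose and 19 did not pass, with a median log2 fold change of -0.10. Among all genes tested 4.9% fell and 7.79% rose. Camkv, for a kinase-like protein of neurones, fell by 0.36 on the log2 scale (edgeR adjusted p = 0.0391), Camk1d, for another calmodulin kinase, by 0.25 (0.00125) and Camkk1, for a kinase that activates other calmodulin kinases, by 0.22 (0.00417). Camk4, for a nuclear calmodulin kinase, was the gene that rose, by 0.24 (edgeR adjusted p = 0.0485). On this list DESeq2 called 1 higher and 9 lower, and limma-voom called 0 higher and 9 lower, so that the rise of Camk4 was lost there.

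Among 25 tested genes of other sensors and EF-hand proteins 3 rose, 3 fell and 19 did not pass, with a median log2 fold change of -0.0047. Over all genes tested 7.79% rose and 4.9% fell. S100a10, for a small EF-hand protein that partners annexin, rose by 0.40 (log2; edgeR adjusted p = 0.00821). Pdcd6, known for its part in membrane repair and vesicle transport, rose by 0.33 (0.000122). Necab2, the close relative of Necab1, fell by 0.51 (edgeR adjusted p = 0.0441), and Cib2 fell by 0.21 (0.0355). Necab2 averaged 39.3 CPM in dehydrated and 56.0 CPM in euhydrated libraries.

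Of 18 tested genes that carry calcium out of the cell or into mitochondria, edgeR called 0 in either direction, against 12.7% of all genes tested. At an unadjusted p under 0.05 it put 3 higher and 5 lower, DESeq2 called 1 higher and 2 lower, and limma-voom called 0 higher and 1 lower. Atp2b4 and Atp2b2, for plasma membrane calcium pumps, had log2 fold changes of -0.14 ± 0.08 and -0.08 ± 0.04 (SE; edgeR adjusted p = 0.345 and 0.184). Of 15 tested partners of the sensors 1 rose and 1 fell, against 7.79% and 4.9% of all genes tested. Kcnd3, for a potassium channel subunit, rose by 0.14 (edgeR adjusted p = 0.0439), and the glutamate receptor gene Grm5 fell by 0.25 (0.00889). On that list DESeq2 called 2 higher and 1 lower, and limma-voom called 0 higher and 1 lower, so that the rise of Kcnd3 was lost there.

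**Figure D4:**
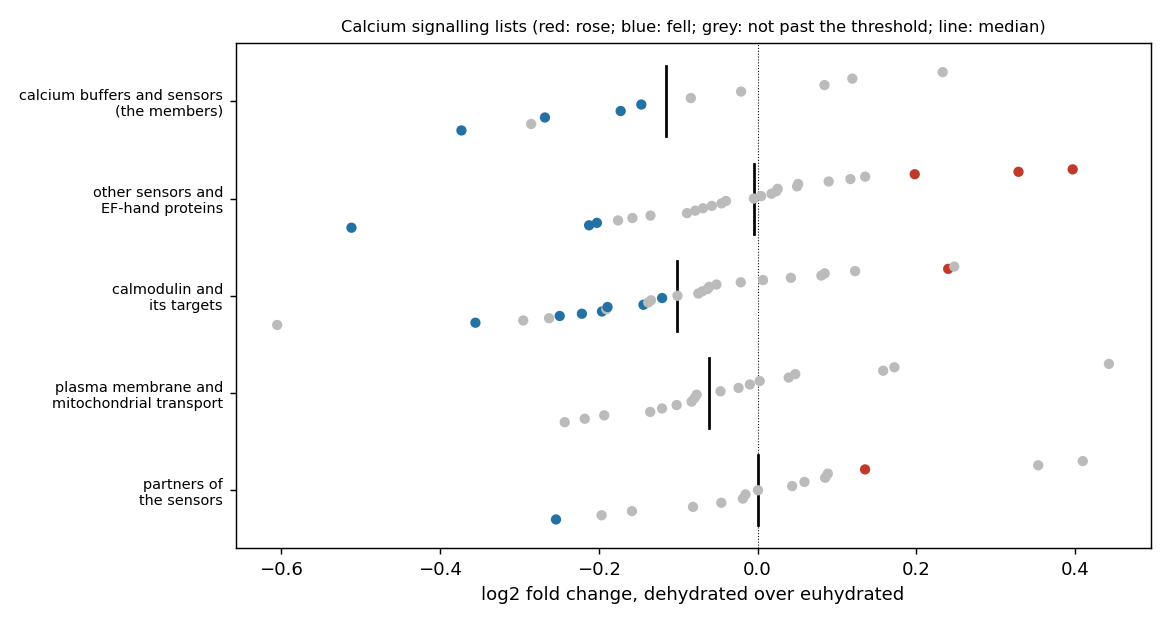
Log2 fold change, dehydrated over euhydrated, of every tested gene of the 10 members and of 4 calcium signalling lists, with genes that rose in red, genes that fell in blue, others in grey and each median as a black line. The medians are -0.12 for the members, -0.0047 for other sensors and EF-hand proteins, -0.10 for calmodulin and its targets, -0.06 for calcium transport and 0.00056 for partners of the sensors.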

How the data were processed

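The deposited tables hold raw whole-number read counts for each Ensembl gene and the results of the authors' own group comparison: log2 fold changes, p-values, a Wald score and normalised counts (a signal), per the file headers. The submitters' processing notes name CASAVA, FastQC, STAR, featureCounts and DESeq2 1.28.1. Genome build, annotation, strand setting and the handling of multiply matching reads are not stated there or in the labels. Counts of closely similar sensors such as Hpca and Hpcal1 are therefore uncertain where their sequences match. Symbols came from the authors' deposited table. Euhydrated columns 3 to 5 carry numbers that the labels give in 2 ways, so they were tied to the group only.

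Genes were kept with filterByExpr, scaled by TMM and tested by the robust quasi-likelihood method of edgeR 4.0.16 (R 4.3.3), with Benjamini-Hochberg adjustment over all 15311 genes and a threshold of 0.05. Log2 CPM used a prior count of 2. Intervals are 95% intervals of the fit. No 2 libraries of a group agreed within counting noise (chi-square over its degrees of freedom was 4.86 to 12.1). Tested on data simulated for this comparison, with 15217 genes, the fit called 8% of genes changed 1.1-fold, 48% changed 1.25-fold and 92% changed 1.5-fold.

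The members, gene lists and tests were chosen with earlier results of these data known. Named were all members, up to 4 genes per calcium list past the threshold with the largest change (otherwise the 2 most abundant), and the 3 genes of at least 5 CPM nearest in profile to each of the 3 most abundant members past the threshold; Nrgn, Slc17a7 and Npy were named after their values were seen. Alternatives were other scaling, 2 other filters, DESeq2 1.42.0, limma-voom (limma 3.58.1), a replicate block, Avp and Oxt left out and each library left out. Added after seeing the data were the fit without both libraries numbered 2 and 4 marker covariates.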

Additional observations from a re-analysis of the deposited data

Results flagged for a closer look

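Hpca was set apart by 1 library: euhydrated library 5 had 90.1 CPM, below the 104 to 110 CPM of the other 4 euhydrated libraries and within the range of the dehydrated ones (80.6 to 92.3 CPM). Without it, the fall of Hpca passed with an edgeR adjusted p of 0.000316. Necab1 was set apart by euhydrated library 3, with 98.6 CPM against 107 to 111 CPM in the other 4. A gap of this size arises by chance in about 1 of 20 groups, and 20 groups were examined.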

How the results depend on the processing

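Over 23 alternatives for each of the 10 genes, 203 of 230 results kept their direction and their side of the threshold, 17 lost a call, 9 gained one and 1 changed sign: Ncs1, at 0.00491 with the GABAergic covariate. The number of members called was 7 (2 higher, 5 lower) with the replicate block, 1 with the GABAergic covariate, 1 with the erythrocyte covariate and 3 to 4 without 1 library. Of all genes 1942 passed, and 1956 passed with the replicate block (1160 higher, 796 lower). With the GABAergic covariate 1065 passed, with the erythrocyte covariate 682, and without 1 library 1494 to 1756. These covariates shift with the groups, the erythrocyte level by -0.90 log2, and the cause was not tested. Library totals in place of TMM turned the split of calls from 1192 higher and 750 lower to 904 and 1173, with the median of all genes at -0.033 instead of -0.0058 on the log2 scale, and the same number of members, 4, fell. Deviations of libraries of the same number had correlations of -0.07 to 0.14 over all genes. These cannot show whether such libraries were paired, so the block rests on numbers only. At this depth the simulated fit called 8% of 1.1-fold changes, and whether that share applies to these 10 genes was not tested. In the data, Hpcal1 and Vsnl1 were called with fitted falls of 1.107-fold and 1.127-fold (edgeR adjusted p = 0.0143 and 0.000993). Necab1, fitted as 1.086-fold higher, did not pass (edgeR adjusted p = 0.136).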
